A study of Mus musculus with 6 samples.

Results

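The extracellular matrix genes of CMT93 spheroids were compared between cultures grown with vehicle and with palmitate. Members were the rows of the count table whose symbols name a collagen chain, a laminin chain, an MMP, an ADAMTS or ADAMTS-like protein, a TIMP or a lysyl oxidase, together with Fn1, Sparc, Nid1, Nid2, Hspg2, Agrn, Tnc and Thbs1. This gave 78 genes of the 23399 in the table, picked by symbol. Nid2 was not analysed here. CMT93 is an established wildtype mouse colorectal cancer line. All 6 samples were polyadenylated RNA from spheroids on soft agar with 0.25% Matrigel. The vehicle group (n = 3) received ethanol with bovine serum albumin (BSA), and the palmitate group (n = 3) received 200 µM sodium palmitate, a saturated fatty acid, in ethanol and conjugated to BSA. Each agent was present during 1 week of monolayer culture and the 5 days of spheroid culture that followed. All cells came from a single line, and the labels number the samples without saying whether they were separate cultures, and the p-values then cover only the variation among these 6 libraries, part or all of which may be technical.

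Epithelial cells rest on a basement membrane, a sheet in which laminin trimers and a collagen IV network are tied together by nidogen, perlecan and agrin. Fibrillar collagens form the stroma beneath it and are made mainly by fibroblasts. MMP and ADAMTS proteases cut matrix proteins, TIMPs inhibit these proteases, and lysyl oxidases cross-link collagen and elastin. Matrigel itself supplies mouse laminin, collagen IV, nidogen and perlecan as protein. The values here are messages made by the cells, and no protein was measured.

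The libraries held 18.9 to 22.9 M counts, with the 3 palmitate libraries the deepest. Summed markers of epithelium and colorectum reached 7280 to 7355 CPM (counts scaled to library size by the TMM method) with vehicle and 6659 to 6757 CPM with palmitate. The list moved both ways: of 8 tested markers 3 were lower (Krt18, Krt8 and Cdh1), 2 higher (Krt19 and Cdx2) and 3 not called (Epcam, Vil1 and Lgals4). The lower and higher shares were 37.5% and 25%, beside 25.4% and 27.4% of all tested genes. The keratin Krt8 went from 1703 ± 21.9 to 1439 ± 28.2 CPM (SD, n = 3 each) and Krt18 from 1445 ± 21.4 to 1079 ± 7.71 CPM, while Krt19 went from 1249 ± 15.9 to 1364 ± 6.57 CPM. The intestinal regulator Cdx2 was low, at 1.72 ± 0.276 CPM with vehicle and 2.46 ± 0.365 CPM with palmitate, and the differentiation keratin Krt20 was not tested. The part of these markers in the matrix values was not tested. Of the fibroblast and smooth muscle markers, Pdgfra, Dcn and Postn had no read in any vehicle library and 6, 6 and 2 reads in all with palmitate.

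Palmitate spheroids had more message for Col4a1 and Col4a2, for the 3 measurable lysyl oxidases and for Timp1. They had less for Sparc, fibronectin, most laminin chains, perlecan, agrin and several non-fibrillar collagens. Of the 78 members, 55 passed the filter on low counts. Among these 15 were higher and 24 lower by edgeR's two-sided quasi-likelihood test, with p adjusted over all 14987 tested genes and 0.05 as the threshold, and 16 were not called. These 39 called members were 70.9% of those tested, against 52.8% of all tested genes. The higher share was 27.3%, near the 27.4% of all tested genes, and the lower share was 43.6%, against 25.4%. The median log2 fold change was -0.14 over the tested members and 0.00068 over all tested genes. The groups did not overlap for 43 members, 16 above and 27 below, while 57.8% of all tested genes had groups that did not overlap (29.7% above and 28.1% below). Of the tested members, 6 reached the filter's cutoff in every library of 1 group only (Col11a2, Col2a1, Col16a1 and Mmp7 in vehicle, Col11a1 and Mmp13 in palmitate). Of all 14987 tested genes, 915 did so. For Mmp7 and Col11a1 no library of the other group reached the cutoff. The passing of such members leaned on the group where they are high, so these counts and medians are descriptions. Many differences were small. When edgeR's glmTreat tested against a minimum fold of 1.2, it called 23 of the 55 tested members, against 2275 of all 14987 tested genes (15.2%). Among the 16 calls that this ended were Col4a1 and Loxl2 (adjusted p = 1 each), Agrn (adjusted p = 0.254), Lama5, Hspg2, Lamb2, Lamc1 and Col18a1, while Col4a2, Lamb3, Fn1, Sparc, Timp1, Loxl3 and Loxl4 were still called. In this bulk RNA, fewer cells of a type and less message per cell cannot be told apart.

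**Figure D1:**
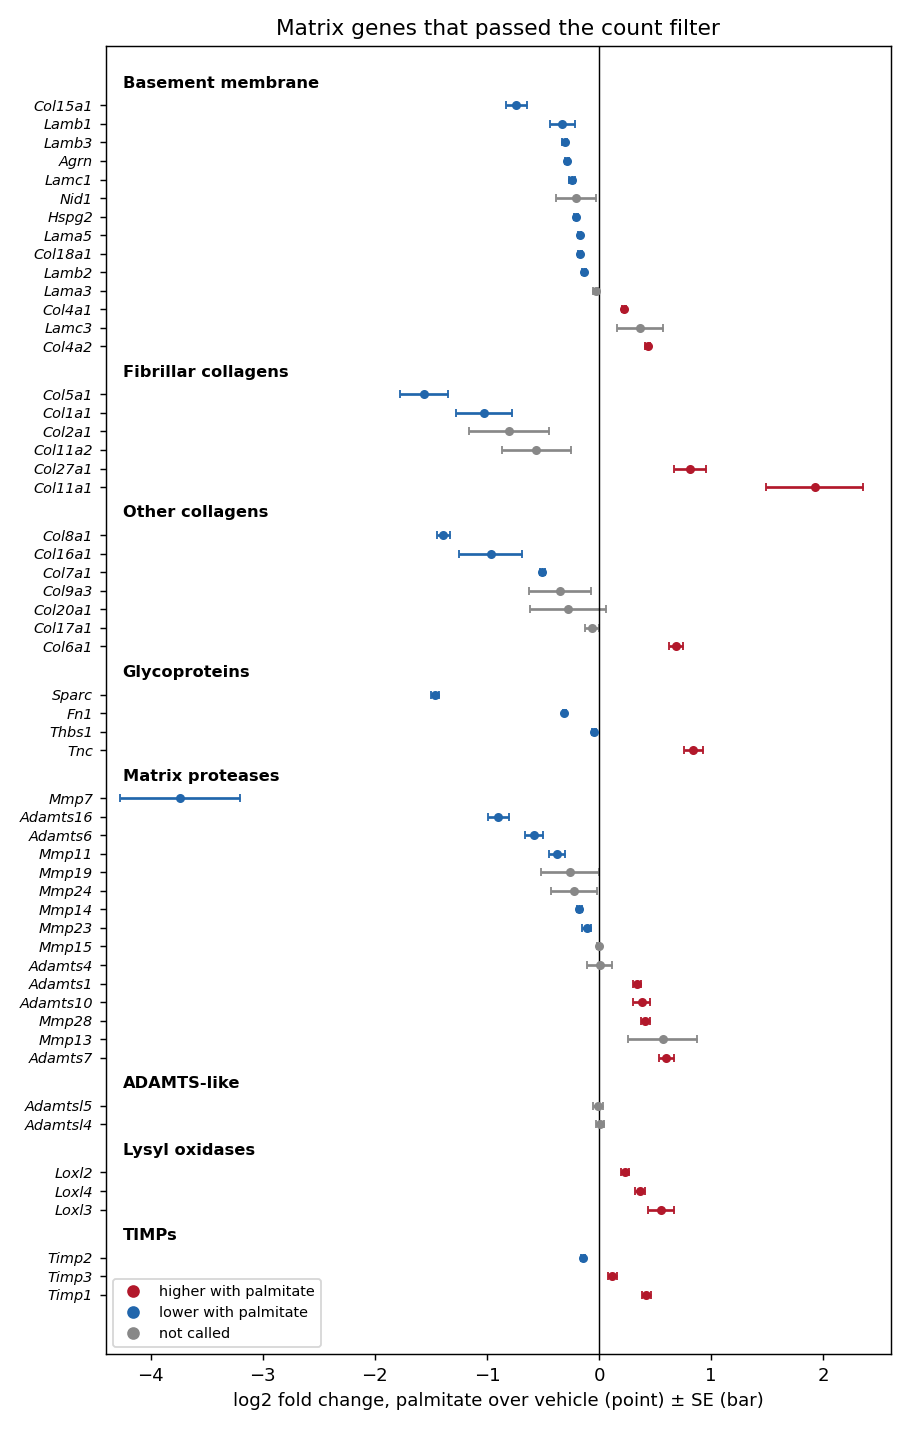
Log2 fold change of palmitate over vehicle for matrix genes that passed the count filter, by class. Points are edgeR estimates and bars are ± 1 SE, with color giving the call at an adjusted p under 0.05. Lysyl oxidases lay right of 0, most basement membrane genes lay left of it, and Mmp7 stood farthest left at -3.74.

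In the basement membrane class, 15 members were tested, of which 2 rose (13.3%), 9 fell (60%) and 4 were not called. Among all tested genes 27.4% were higher and 25.4% lower. The median level was 204 CPM in the class and 25.4 CPM over all tested genes, so these shares are not of genes alike in abundance. Against a minimum fold of 1.2, glmTreat called 3 of the 15. The class median log2 fold change was -0.17, and the estimates ran from -0.74 to 0.43. Both members that rose were collagen IV chains. Col4a1 (ENSMUSG00000031502.12), which forms the main collagen IV network with Col4a2, stood at 332, 321 and 319 CPM with vehicle and 366, 391 and 375 CPM with palmitate (log2 fold change 0.22 with SE 0.0196, edgeR adjusted p = 5.31e-16). Col4a2 (ENSMUSG00000031503.14) stood at 177, 173 and 172 CPM with vehicle and 231, 241 and 233 CPM with palmitate (log2 fold change 0.43 with SE 0.0213, edgeR adjusted p = 4.29e-32). For both genes every palmitate library lay above every vehicle library. The ratio of the pair was higher in each palmitate library than in any vehicle library. That ratio of Col4a2 to Col4a1 counts was 0.532, 0.539 and 0.538 with vehicle and 0.631, 0.615 and 0.621 with palmitate. This difference of 0.21 on the log2 scale gave p = 0.1 in an exact two-sided permutation test, the smallest p that 3 libraries against 3 allow (adjusted p = 0.117 over 7 ratios). The 7 ratios were chosen after their values were seen. Col4a3, Col4a4 and Col4a5 had at most 3 counts in a library and were not tested.

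Col4a1 and Col4a2 lie head to head and are transcribed away from each other. Their promoter windows are shown because this is the pair of neighbouring members that rose together. Each window runs from 250 bases before to 50 bases after the RefSeq start site in build GRCm38.p6, an earlier build than the mm39 of the counts. The Col4a1 window is chr8:11312777-11313076 on the minus strand and the Col4a2 window is chr8:11312555-11312854 on the plus strand. Capitals mark the 78 bases that both windows hold, on opposite strands, and the annotated 5′ ends overlap by 22 bases.
Col4a1: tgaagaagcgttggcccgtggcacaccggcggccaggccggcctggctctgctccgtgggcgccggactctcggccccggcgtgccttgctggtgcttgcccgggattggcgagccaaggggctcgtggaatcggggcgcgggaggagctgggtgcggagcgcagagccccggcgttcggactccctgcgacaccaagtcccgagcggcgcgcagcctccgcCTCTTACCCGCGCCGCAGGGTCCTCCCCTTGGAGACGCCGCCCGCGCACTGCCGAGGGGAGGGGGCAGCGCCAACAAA
Col4a2: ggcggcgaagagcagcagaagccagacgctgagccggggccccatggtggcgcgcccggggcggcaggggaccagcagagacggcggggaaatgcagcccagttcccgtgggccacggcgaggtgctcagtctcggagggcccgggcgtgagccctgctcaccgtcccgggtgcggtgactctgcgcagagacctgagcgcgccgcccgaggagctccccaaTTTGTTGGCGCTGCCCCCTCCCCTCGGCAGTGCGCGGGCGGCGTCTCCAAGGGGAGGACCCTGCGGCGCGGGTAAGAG
The shared bases hold the GC box GGGCGG and the run CCCTCCCC, searched on both strands. These letters are in 35.7% and 10.8% of the 32851 promoter windows in the table. CCAAT was found in each window, but not within the shared bases alone, and in 37.4% of all windows. TATAAA was in neither window and in 13.6% of all windows. Such matches are descriptions of the letters and not binding sites.

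Of the laminin chains, 5 were lower (Lama5, Lamb2, Lamb3, Lamc1 and Lamb1) and none was called higher. Of all tested genes, 25.4% were lower and 27.4% higher. Against a minimum fold of 1.2, Lamb3 alone of these chains was still called (adjusted p = 0.0489, glmTreat). Lama5 (ENSMUSG00000015647.10), the laminin alpha chain of most adult basement membranes, had 1005 ± 3.54 CPM (SD, n = 3) in vehicle libraries and 893 ± 7.83 CPM (SD, n = 3) in palmitate libraries (log2 fold change -0.17, adjusted p = 2.68e-17, edgeR). Lamb2 and Lamc1, which can pair with it, fell from 270 ± 4.98 to 246 ± 4.38 CPM and from 103 ± 0.650 to 87.1 ± 1.81 CPM. Lama3 and Lamb3 are chains of the laminin under hemidesmosomes, the anchors of epithelial cells. Lamb3 stood at 210, 200 and 205 CPM with vehicle and 166, 166 and 165 CPM with palmitate (log2 fold change -0.31 with SE 0.0218, edgeR adjusted p = 5.22e-22). The groups did not overlap. Lama3 (212 ± 3.84 CPM with vehicle, 208 ± 4.12 CPM with palmitate) overlapped between groups and was not called. The count ratio of Lamb3 to Lama3 was 0.970 ± 0.0371 with vehicle and 0.800 ± 0.0178 with palmitate (exact permutation p = 0.1, two-sided). The ratio of Lamb2 to Lama5 overlapped between groups, at 0.269 ± 0.00514 and 0.276 ± 0.00365 (exact permutation p = 0.2), and that of Lamc1 to Lama5 was 0.102 ± 0.000371 and 0.0976 ± 0.00122 (exact permutation p = 0.1). Among the low chains, Lamb1 had 6.24 ± 0.285 CPM with vehicle and 4.96 ± 0.633 CPM with palmitate. Its log2 fold change of -0.33 was called (adjusted p = 0.00892, edgeR), but not without palmitate replicate 3 (adjusted p = 0.111) or with DESeq2 (adjusted p = 0.102). Lamc3 had a log2 fold change of 0.36 with an SE of 0.203 and was not called.

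The proteoglycans and linkers of the basement membrane were lower or not called. Agrn, which encodes the heparan sulfate proteoglycan agrin, stood at 374, 373 and 364 CPM with vehicle and 311, 305 and 298 CPM with palmitate (log2 fold change -0.28 with SE 0.0186, edgeR adjusted p = 5.33e-24). Hspg2, which encodes perlecan, fell from 439 ± 7.37 to 381 ± 7.67 CPM. Nid1, the linker of laminin to collagen IV, had 2.22 ± 0.0722 and 1.92 ± 0.329 CPM and was not called. The collagens that bear endostatin-like ends also fell. Col18a1 went from 569 ± 3.29 to 507 ± 16.4 CPM. Col15a1 stood at 9.37, 10.0 and 8.72 CPM with vehicle and 5.59, 5.77 and 5.50 CPM with palmitate (log2 fold change -0.74 with SE 0.0948, edgeR adjusted p = 1.56e-10), the greatest fall of the class. The summed basement membrane message was 3780 to 3852 CPM in the vehicle libraries and 3506 to 3602 CPM in the palmitate libraries.

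Per kb of exon, Thbs1 was the most abundant member with vehicle at 466 ± 5.03 CPM per kb. Mmp15 (288 ± 2.73 CPM per kb) and Fn1 (287 ± 0.757 CPM per kb) followed and did not differ beyond their spread. With palmitate Mmp15 was at 288 ± 4.22 CPM per kb and Fn1 was at 231 ± 3.58 CPM per kb. In the basement membrane the order with vehicle was Lama5 (88.3 ± 0.311 CPM per kb), Col18a1 (81.0 ± 0.469), then Lamb2 (44.4 ± 0.819) and Col4a1 (43.4 ± 0.935), which lay within their spread. With palmitate Col4a1 (50.5 ± 1.74 CPM per kb) lay above Lamb2 (40.5 ± 0.721 CPM per kb). Exon lengths came from an earlier gene annotation, so the order between genes depends on its transcripts. Fn1, Thbs1 and Mmp15 together made up 58.3% to 59.1% of all member CPM in each of the 6 libraries.

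**Figure D2:**
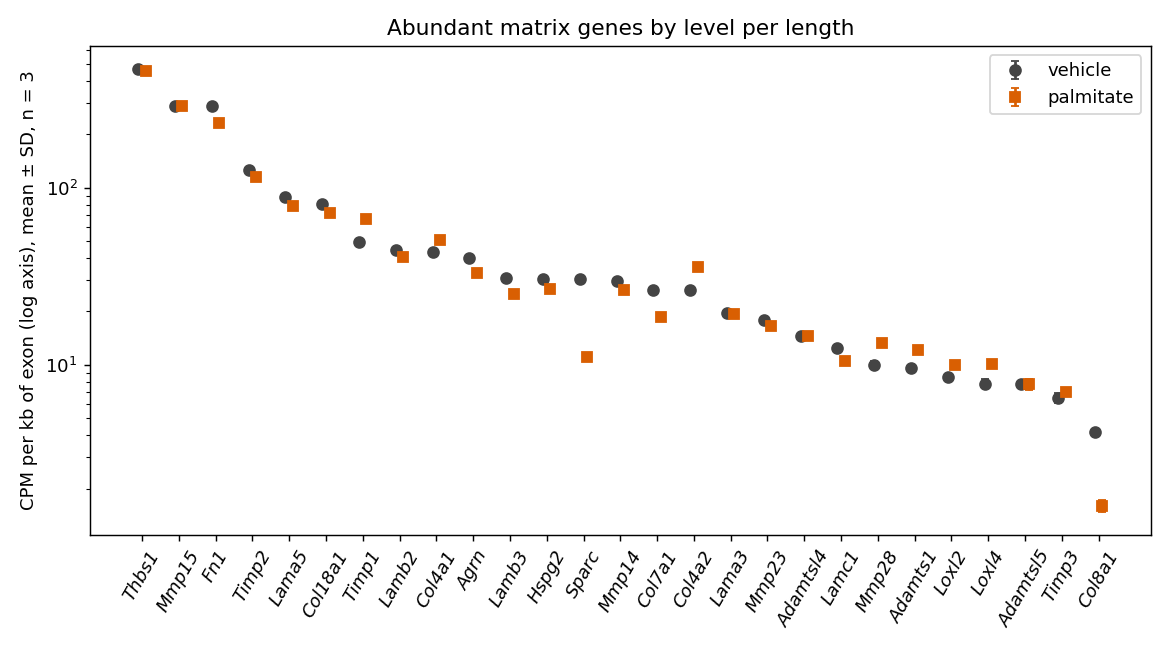
Level per length of matrix genes with a mean of at least 20 CPM, in CPM per kb of exon on a log axis, ordered by the vehicle mean. Circles are vehicle and squares palmitate, each the mean of 3 libraries ± SD, with most bars smaller than the symbol. Thbs1 is highest at 466 CPM per kb with vehicle, and Sparc and Col8a1 show the widest gaps between groups.

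Fibrillar collagens were low. Of the 6 tested, 2 rose (33.3%), 2 fell (33.3%) and 2 were not called, beside 27.4% higher and 25.4% lower among all tested genes. Of these 6, 3 reached a mean of 1 CPM. Col5a1, which starts the assembly of type I fibrils, stood at 3.27, 2.46 and 2.49 CPM with vehicle and 0.984, 0.532 and 1.23 CPM with palmitate (log2 fold change -1.56 with SE 0.211, edgeR adjusted p = 1.04e-09). Col1a1, a chain of the main stromal collagen, stood at 1.37, 1.68 and 1.29 CPM with vehicle and 0.716, 0.666 and 0.749 CPM with palmitate (log2 fold change -1.03 with SE 0.247, edgeR adjusted p = 0.000267). Both fell with no overlap between groups. Col27a1, a short fibrillar collagen best known from cartilage, went the other way, from 2.21, 2.91 and 2.63 CPM to 4.16, 4.61 and 4.93 CPM (log2 fold change 0.81 with SE 0.140, edgeR adjusted p = 6.51e-07). Col11a1, a cartilage collagen chain, had 2, 5 and 3 counts with vehicle and 11, 15 and 16 counts with palmitate (log2 fold change 1.92 with SE 0.432, edgeR adjusted p = 9.49e-05). It passed the filter only through the palmitate libraries. Col11a2 and Col2a1 had log2 fold changes of -0.56 and -0.80 and were not called, the latter with an adjusted p of 0.0529 (edgeR). Col2a1 was called with the replicate number as a block, with limma-voom and without vehicle replicate 2 or palmitate replicate 1. Col1a2, the partner chain of Col1a1, had at most 8 counts in a library and Col5a3 at most 5, and neither was tested.

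The fibroblast and smooth muscle markers were low as well, and the 2 that were tested, Acta2 and Des, fell. Their sum over 6 genes was 5.60 to 7.16 CPM with vehicle and 2.51 to 3.51 CPM with palmitate, and came almost wholly from Acta2 and Des. Acta2, the smooth muscle actin gene, went from 3.48 ± 0.286 to 1.26 ± 0.611 CPM and Des, the desmin gene, from 2.87 ± 0.526 to 1.49 ± 0.128 CPM. Both were called. The other 4 (Pdgfra, Dcn, Postn and Myh11) were under 1 CPM and not tested, and each had a few more reads with palmitate than with vehicle. The 6 endothelial markers summed to 3.46 to 3.88 CPM with vehicle and 2.22 to 2.73 CPM with palmitate, with Cdh5 alone called, lower. The 5 immune markers summed to 7.42 to 9.16 CPM and 9.81 to 10.9 CPM, mostly from Cd68, which was higher. Ptprc was called lower, with 52 and 18 counts in all, but passed the filter only through the vehicle libraries. The part of these markers in the collagen values was not tested.

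Of the other collagens 7 were tested, and 1 rose (14.3%), 3 fell (42.9%) and 3 were not called. The shares of all tested genes were 27.4% higher and 25.4% lower. Col7a1, which builds the anchoring fibrils under epithelia, stood at 279, 271 and 268 CPM with vehicle and 191, 195 and 191 CPM with palmitate (log2 fold change -0.51 with SE 0.0204, edgeR adjusted p = 8.66e-38). Col8a1, a short network-forming collagen, stood at 32.3, 34.1 and 31.9 CPM with vehicle and 11.4, 13.2 and 12.9 CPM with palmitate (log2 fold change -1.39 with SE 0.0579, edgeR adjusted p = 7.18e-37). Neither gene had overlapping groups, and the Col8a1 fall was 2.62-fold. Col6a1, a chain of beaded filaments, rose from 12.0, 11.5 and 12.3 CPM to 19.5, 18.3 and 19.9 CPM (log2 fold change 0.69 with SE 0.0655, edgeR adjusted p = 1.13e-15). Its partner Col6a2 had at most 7 counts in a library and was not tested. Col17a1, the transmembrane collagen of hemidesmosomes, had 18.6 ± 0.0857 and 17.8 ± 0.748 CPM and was not called. Col16a1, which sits on fibril surfaces, had 1.13 ± 0.140 and 0.578 ± 0.157 CPM. All 3 vehicle libraries but only 2 palmitate libraries reached the filter's cutoff for Col16a1. Its log2 fold change of -0.97 was called (adjusted p = 0.00216, edgeR) but not with DESeq2 (adjusted p = 0.0540). Col9a3 (-0.35) and Col20a1 (-0.28), given with log2 fold changes, were under 1 CPM and not called. The 7 untested collagens of this class had at most 9 counts in a library.

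All 4 adhesive and matricellular glycoproteins were called, 1 higher and 3 lower, where 52.8% of all tested genes were called. Their median level was 1430 CPM, against 25.4 CPM for all tested genes. Sparc (ENSMUSG00000018593.14), a secreted collagen-binding protein, stood at 112, 118 and 115 CPM with vehicle and 43.9, 40.1 and 41.7 CPM with palmitate (log2 fold change -1.46 with SE 0.0335, edgeR adjusted p = 1.03e-55). This was a 2.75-fold fall, with the smallest p of any member. Fn1, which encodes fibronectin, stood at 3340, 3352 and 3356 CPM with vehicle and 2726, 2730 and 2656 CPM with palmitate (log2 fold change -0.31 with SE 0.0138, edgeR adjusted p = 8.67e-35). In CPM this was the largest absolute difference among the members. Thbs1, which encodes thrombospondin, an adhesive protein that also acts on latent TGF-beta, had 2832 ± 30.5 CPM with vehicle and 2746 ± 30.4 CPM with palmitate. Its log2 fold change of -0.045 was called (adjusted p = 0.00467, edgeR) and amounts to 1.03-fold. Tnc, which encodes tenascin-C, rose from 6.11, 7.19 and 7.48 CPM to 12.9, 12.8 and 11.7 CPM (log2 fold change 0.84 with SE 0.0850, edgeR adjusted p = 1.68e-14).

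**Figure D3:**
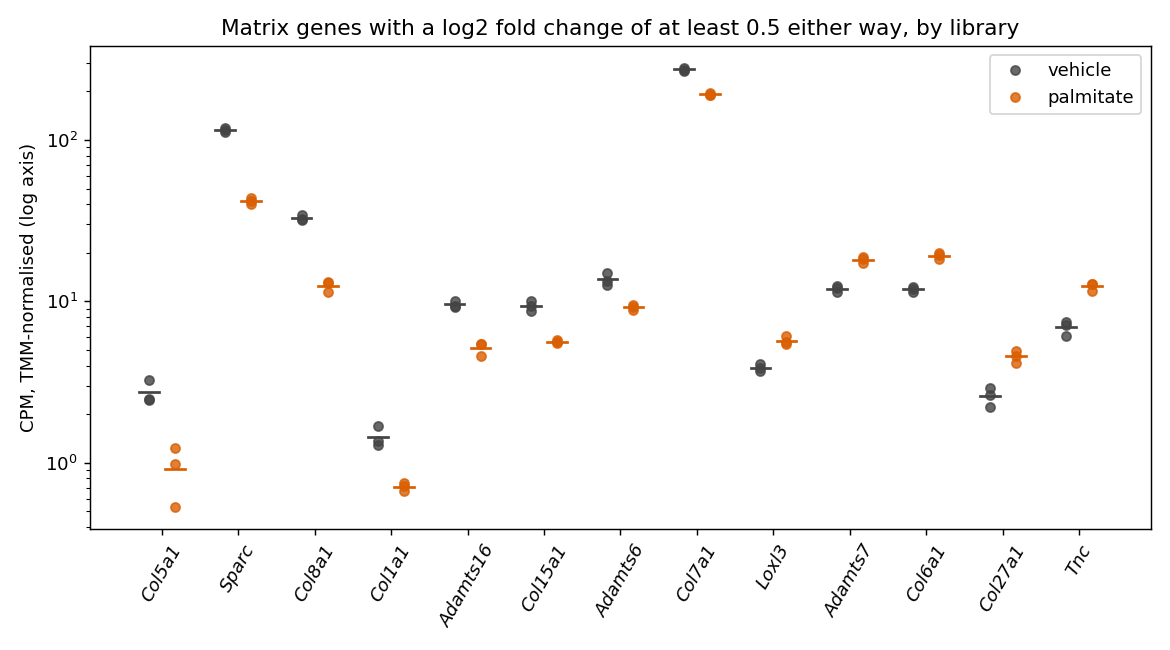
CPM (TMM-normalised, log axis) in each of the 6 libraries for the called members with a mean of at least 1 CPM and a log2 fold change of at least 0.5 in either direction. Dots are libraries, short lines the group means, and genes are ordered from the greatest fall to the greatest rise. No gene's groups overlap, from Col5a1 (-1.56) to Tnc (0.84).

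The proteases moved in both directions, and of 15 tested 4 rose (26.7%), 6 fell (40%) and 5 were not called. Among all tested genes 27.4% were higher, near the share of the proteases, and 25.4% were lower. Mmp15, a membrane-anchored MMP and the most abundant protease here, stood at 1548, 1545 and 1572 CPM with vehicle and 1564, 1567 and 1526 CPM with palmitate. Its groups overlapped, and the log2 fold change was -0.0026 with an SE of 0.0146. Mmp14, the membrane-type MMP that activates the MMP2 proenzyme, fell from 177 ± 1.88 to 157 ± 1.64 CPM (log2 fold change -0.18, adjusted p = 9.51e-11, edgeR). Mmp2 itself had at most 1 count in any library. Among secreted MMPs, Mmp28, an epithelial MMP, rose from 38.8 ± 1.71 to 51.7 ± 0.0771 CPM, while Mmp11, also called stromelysin-3, fell from 13.5 ± 0.802 to 10.5 ± 0.632 CPM. Mmp7, or matrilysin, an MMP made by epithelial cells, had 14, 27 and 13 counts with vehicle and 0, 4 and 0 counts with palmitate. Its fitted log2 fold change of -3.74 (SE 0.536, adjusted p = 1.23e-08, edgeR) rests on 54 and 4 counts in all, and it passed the filter only through the vehicle libraries. Mmp23 had 41.8 ± 1.25 and 38.7 ± 0.400 CPM. It was called with an adjusted p of 0.0203 (edgeR), a call lost with DESeq2 (adjusted p = 0.158), with no count filter (adjusted p = 0.0506) and without vehicle replicate 1 (adjusted p = 0.0755), vehicle replicate 3 (adjusted p = 0.0743) or palmitate replicate 1 (adjusted p = 0.0673). Mmp24 (-0.23), Mmp19 (-0.26) and Mmp13 (0.57), given with log2 fold changes, had means under 2 CPM and were not called.

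The ADAMTS proteases act mostly on proteoglycans, procollagens and microfibrils, and they too split. Adamts1, which cuts versican and aggrecan, rose from 50.7 ± 2.14 to 64.2 ± 1.57 CPM (log2 fold change 0.34, adjusted p = 1.68e-13, edgeR). Adamts7 rose from 12.4, 11.4 and 12.2 CPM to 17.3, 18.8 and 18.3 CPM (log2 fold change 0.60 with SE 0.0665, edgeR adjusted p = 7.29e-13). Adamts10, which binds fibrillin microfibrils, rose by 0.38 on the log2 scale. Its close relative Adamts6 fell, from 13.4, 15.0 and 12.7 CPM to 9.49, 8.79 and 9.25 CPM (log2 fold change -0.58 with SE 0.0773, edgeR adjusted p = 5.10e-10). Adamts16 fell from 9.43, 9.24 and 10.1 CPM to 5.41, 4.61 and 5.42 CPM (log2 fold change -0.90 with SE 0.0967, edgeR adjusted p = 2.24e-13). For these genes no palmitate library fell within the vehicle range. The aggrecanase gene Adamts4 had 5.74 ± 0.471 and 5.77 ± 0.709 CPM and was not called. The ADAMTS-like proteins lack a protease domain. Adamtsl4 (60.8 ± 1.74 and 61.0 ± 2.31 CPM) and Adamtsl5 (36.8 ± 1.46 and 36.6 ± 2.74 CPM) overlapped between groups and were not called by edgeR, with 0 of these 2 genes called by DESeq2 or limma-voom and unadjusted p-values of 0.866 and 0.825. The 8 untested proteases had at most 6 counts in a library.

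Of the protease inhibitors, 2 of 3 were higher and 1 lower, beside 27.4% higher and 25.4% lower among all tested genes. Timp1 stood at 45.4, 43.7 and 42.7 CPM with vehicle and 58.4, 58.4 and 59.8 CPM with palmitate (log2 fold change 0.42 with SE 0.0376, edgeR adjusted p = 4.29e-17). Timp2, which inhibits MMPs and also takes part in MMP2 activation, stood at 491, 479 and 498 CPM with vehicle and 439, 457 and 438 CPM with palmitate (log2 fold change -0.14 with SE 0.0177, edgeR adjusted p = 1.26e-10). The count ratio of Timp1 to Timp2 was therefore 0.0898 ± 0.00363 with vehicle and 0.132 ± 0.00434 with palmitate, a log2 difference of 0.56 (exact permutation p = 0.1, two-sided). The ratio of Mmp15 to Timp2 was 3.18 ± 0.0400 and 3.49 ± 0.0661, and that of Mmp14 to Timp2 was 0.362 ± 0.00326 and 0.353 ± 0.00491 (exact permutation p = 0.1 each, two-sided). Timp3, the inhibitor that binds to the matrix, had 53.0 ± 3.22 and 57.4 ± 1.34 CPM. Its log2 fold change of 0.12 was called (adjusted p = 0.00538, edgeR), but not with DESeq2 (adjusted p = 0.0680) or without vehicle replicate 3 (adjusted p = 0.142).

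All 3 lysyl oxidases that were tested rose, where 27.4% of all tested genes were called higher. Loxl2, which oxidises collagen IV among other targets, stood at 48.5, 44.7 and 45.0 CPM with vehicle and 53.6, 55.2 and 53.2 CPM with palmitate (log2 fold change 0.23 with SE 0.0384, edgeR adjusted p = 2.46e-07). Loxl4 rose from 32.2, 35.3 and 31.5 CPM to 42.8, 41.5 and 43.2 CPM (log2 fold change 0.36 with SE 0.0440, edgeR adjusted p = 1.70e-11). Loxl3 rose from 4.11, 3.87 and 3.69 CPM to 5.59, 6.08 and 5.42 CPM (log2 fold change 0.55 with SE 0.119, edgeR adjusted p = 4.58e-05). In each case every palmitate library lay above every vehicle library. Their summed level with the untested Loxl1, which had at most 6 counts, was 80.4 to 85.1 CPM with vehicle and 102 to 103 CPM with palmitate.

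At least a 2-fold difference was called for 6 of the 55 tested members, against 676 of all 14987 tested genes (4.51%). Lower were 5 of the 55 (Mmp7, Col5a1, Sparc, Col8a1 and Col1a1), against 423 of 14987 genes (2.82%). Higher was 1 of the 55 (Col11a1), against 253 of 14987 genes (1.69%). Col11a1 passed the filter only through the palmitate libraries and Mmp7 only through the vehicle libraries, so these counts are descriptions. Of the 6 members, Sparc and Col8a1 exceeded 10 CPM. In the plot of all tested genes by abundance, the members above 100 CPM lay within 0.51 of 0 on the log2 scale.

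**Figure D4:**
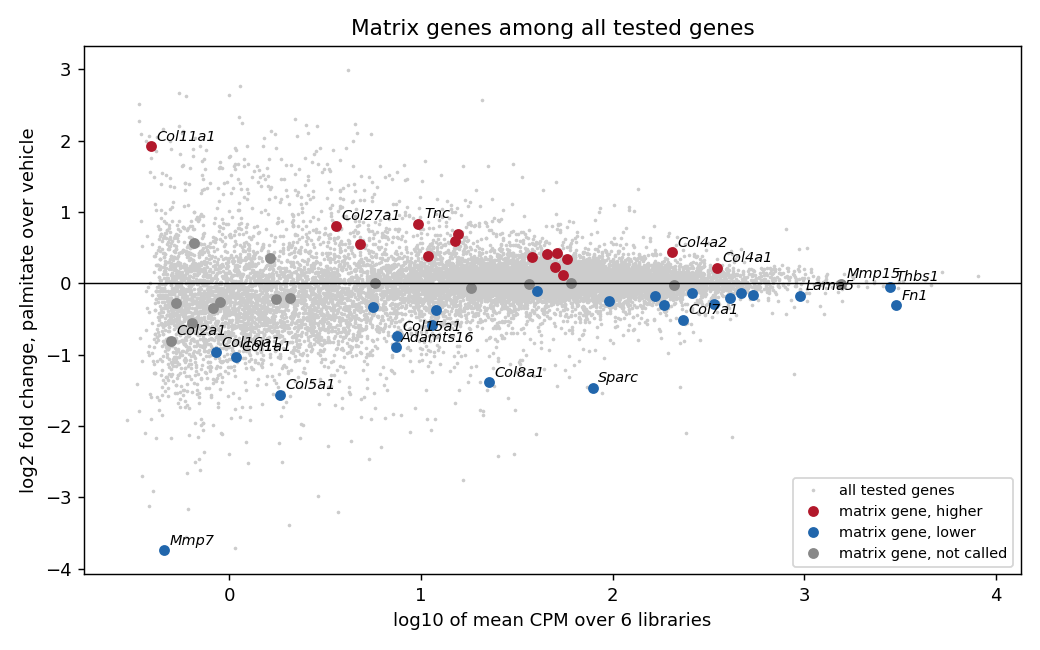
Log2 fold change of palmitate over vehicle against the log10 of mean CPM over 6 libraries for all 14987 tested genes (grey) and tested matrix genes (colored by call). The abundant members Thbs1 and Mmp15 lie near 0, while Sparc (-1.46) and Col8a1 (-1.39) lie low among genes of their abundance.

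Of 22 tested genes that fold and process collagen, 7 were higher (31.8%), 7 lower (31.8%) and 8 not called, beside 27.4% higher and 25.4% lower among all tested genes. Of the prolyl 3-hydroxylase family, 3 members rose: P3h4 from 5.46 ± 0.343 to 10.4 ± 0.516 CPM, P3h2 from 7.32 ± 0.185 to 12.5 ± 0.596 CPM, and P3h1 from 14.0 ± 0.659 to 19.9 ± 2.02 CPM. P3h3 was not tested, and P3h4 is a related protein without known enzyme activity. Creb3l1, a transcription factor of the secretory pathway that acts on collagen genes, fell from 9.06 ± 0.392 to 1.64 ± 0.309 CPM (log2 fold change -2.46, adjusted p = 8.06e-30, edgeR). Mia3, which helps procollagen leave the endoplasmic reticulum, and the isomerase gene Ppib had log2 fold changes of -0.16 and -0.14 and fell. The collagen prolyl 4-hydroxylase genes P4ha1, P4ha2, P4ha3 and P4hb were not called.

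Among genes that activate or restrain matrix proteases, 8 of 21 tested were higher (38.1%), 7 lower (33.3%) and 6 not called. Over all tested genes the shares were 27.4% higher and 25.4% lower. Plat, the tissue plasminogen activator gene, rose from 78.4 ± 2.03 to 117 ± 0.530 CPM. The epithelial protease gene St14 rose by 0.41 and the sheddase gene Adam9 by 0.24 on the log2 scale. The proprotein convertase genes Furin (-0.15) and Pcsk6 (-1.28) fell, as did Bsg (-0.091), which encodes an inducer of MMPs. For other matrix proteins, 7 of 22 tested were higher (31.8%), 10 lower (45.5%) and 5 not called. These shares too stand beside 27.4% higher and 25.4% lower over all tested genes. Vcan, which encodes the proteoglycan versican, fell from 400 ± 5.11 to 302 ± 7.22 CPM, and the basement membrane gene Fras1 fell from 75.0 ± 1.73 to 47.5 ± 2.13 CPM. Ltbp1, which binds latent TGF-beta, fell by 0.19 on the log2 scale. Tgfbi (1.64), Spp1 (0.20) and Ccn1 (0.29) rose, given with log2 fold changes, and encode a collagen-binding protein, osteopontin and a matricellular protein.

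Of receptors for matrix other than integrins, 3 of 13 tested were higher (23.1%), 8 lower (61.5%) and 2 not called. The shares over all tested genes were 27.4% higher, near that of the receptors, and 25.4% lower. Ddr2, a receptor tyrosine kinase for fibrillar collagen, fell from 42.7 ± 1.07 to 14.0 ± 0.584 CPM (log2 fold change -1.61, adjusted p = 1.19e-44, edgeR). The syndecan gene Sdc3 fell from 16.0 ± 0.791 to 6.76 ± 0.598 CPM and Sdc4 fell from 302 ± 10.2 to 247 ± 2.98 CPM, whereas Sdc1 rose from 690 ± 12.6 to 791 ± 6.63 CPM. The hyaluronan receptor gene Cd44 rose from 857 ± 20.7 to 1206 ± 15.7 CPM, and Hmmr, a hyaluronan-binding protein of dividing cells, rose by 0.12 on the log2 scale. The medians of these 4 lists, in the order given, were -0.0028, 0.025, -0.080 and -0.058 on the log2 scale, beside 0.00068 for all tested genes. Their median levels were 29.4, 97.5, 61.8 and 164 CPM, against 25.4 CPM for all tested genes, so the shares called are not of genes alike in abundance.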

How the data were processed

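Deposited raw counts of 6 libraries were analysed, with groups taken from the sample titles. The libraries were stranded and poly(A)-selected, per the labels' protocols. The submitters' processing notes name STAR 2.6.1, FastQC 0.11.8, DESeq2 1.34.0, HTSeq and build mm39. The strand setting of the authors' counting is not stated in the labels or files used here. Their deposited comparison table, by the authors, holds log2 fold changes, p-values and q-values, and a score (a signed −log10 p) that was not used. Members, lists and tests were chosen with earlier results of these data known.

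The test was that of edgeR 4.0.16 under R 4.3.3 (robust glmQLFit, glmQLFTest, two-sided) after TMM scaling and filterByExpr (minimum count 10), without covariates, and adjusted by Benjamini-Hochberg at 0.05 over 14987 genes. The script was tested on simulated data. SE is the log2 fold change over the root of F. Values of 1 tested member are not reported here, though it is in the counts. Named were all other tested members by log2 fold change, called members of at least 1 CPM and 0.5 on the log2 scale by library, those of at least 20 CPM by group mean, and up to 3 called genes of at least 1 CPM per direction and further list, by smallest p. Alternatives were median-of-ratios factors, no filter, DESeq2 1.42.0, limma-voom (limma 3.58.1), glmTreat at 1.2-fold, the replicate number as a block, thinning to the shallowest library, and leaving out each library. Ratios were added after the values were seen. Exon lengths and overlaps came from GENCODE M21 by Ensembl ID, for all 78 members, and promoters from RefSeq (GRCm38.p6) for 53. Library pairs of a group differed by 1.20 to 1.38 times counting noise (chi-square over degrees of freedom), so none was taken for a copy. With 18.9 to 22.9 M counts, counting error is largest for genes near 1 CPM. Figures used matplotlib 3.10.9 in Python 3.11.15.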

Additional observations from a re-analysis of the deposited data

How the results depend on the processing

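Against a minimum fold of 1.2, glmTreat called 23 members (11 higher, 12 lower) in place of 39 and 2275 genes in place of 7915. By class it called 3 basement membrane genes, 6 proteases, 2 lysyl oxidases (not Loxl2) and 1 TIMP (Timp1), and it called 4 collagen processing genes, 5 protease control genes, 7 other matrix genes and 4 receptors. In the other alternatives each of these totals stayed within 1.5 times its value. This does not cover the split by direction. With DESeq2 the protease control genes were 4 higher and 7 lower, in place of 8 higher and 7 lower. DESeq2 called 35 of the 58 members to which it gave an adjusted p. Across the table it called 5692 of 17048 genes, where edgeR called 7915 of 14987. Leaving out single libraries gave 37 to 40 called members. After thinning 38 were called, since Col11a1 no longer passed the count filter. With the replicate number as a block 40 members were called, beside 7933 of 14987 genes. Col2a1 (adjusted p = 0.0477, edgeR) was the member added. Same-numbered libraries did not deviate together (correlations -0.0045 to 0.0085 across genes). Libraries of a group differed by little more than counting noise, so this cannot show whether the numbers pair them. No called member changed direction in any alternative run. Of the members named that were not called, Mmp15 had log2 fold changes of 0.0070 with no filter and 0.00059 with DESeq2 and Adamtsl4 of -0.0083 after thinning. Without single libraries they ran from -0.0087 to 0.012 for Mmp15, -0.014 to 0.039 for Adamtsl4, -0.057 to 0.050 for Adamtsl5, -0.084 to 0.094 for Adamts4 and -0.39 to 0.022 for Mmp24. The cause was not tested. Without single libraries or after thinning, the log2 ratio differences stayed at 0.20 to 0.22 for Col4a2 to Col4a1, -0.31 to -0.26 for Lamb3 to Lama3 and 0.53 to 0.59 for Timp1 to Timp2. In the authors' deposited table, 35 of the 39 called members had a q-value under 0.05, and the others were Lamb1, Col16a1, Mmp23 and Timp3. Whether reads were counted by strand is not known, so members whose exons overlap a gene on the other strand are less certain: Mmp19 (22.3% of exon bases), Timp3 (21.3%), Mmp24 (13.6%), Mmp28 (12.0%), Loxl3 (11.6%) and Mmp7 (11.5%).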

Other observations

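Promoter windows were found for 11 of the members called higher and 18 of those called lower. The letters TGANTCA, the core of AP-1 sites, were found for 1 of the first (Col6a1) and 1 of the second (Mmp7), and in 7.81% of all windows, searched on both strands. TATAAA was in the windows of Tnc and Adamts1 among the higher members and of Mmp7 among the lower, and in 13.6% of all windows. GGGCGG was in 10 of the 11 and 13 of the 18, and in 35.7% of all windows. A member was counted if any of its windows held the letters, whereas the percentages are over single windows. The member counts and the percentages are therefore not like measures, and they describe letters only.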
